A study of Homo sapiens with 8 samples.

Results

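A set of 10 transcription factors known for the making and upkeep of squamous epithelium was followed in 2 cervical cancer cell lines after knockdown of IGF2R. The genes, chosen by name but with earlier results of these data known, were TP63, SOX2, KLF4, KLF5, GRHL1, GRHL2, GRHL3, ELF3, EHF and OVOL1. On these arrays 8961 genes passed the signal threshold. Of the 10, KLF4 and KLF5 passed that threshold, 7 genes did not, and TP63, which no probe set in the annotation used here was paired with, was not analyzed. KLF4 lay lower in BOKU than in SKG-I. After siIGF2R its signal was lower in BOKU and higher in SKG-I, whereas KLF5 was higher in both lines. None of these siIGF2R differences passed the test over both lines.

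BOKU and SKG-I, established human cervical cancer lines, were transfected with an siRNA against IGF2R (siIGF2R) or with a control siRNA (siCtrl), and RNA was taken 72 h later. The study asked what the knockdown of IGF2R, the receptor that carries mannose 6-phosphate-tagged enzymes to lysosomes, does to the transcriptome of these cells. The 4 RNA samples were BOKU siIGF2R, BOKU siCtrl, SKG-I siIGF2R and SKG-I siCtrl, and each was hybridized to 2 GeneChip arrays (8 in all). All cells, the controls included, went through lipofection, and neither the arrays of untransfected cells nor the identity of the siRNA against IGF2R entered here. Each line comes from 1 tumor and gave 1 RNA sample per siRNA, so a difference between the lines is a difference between these cultures, and the number of arrays limits the precision of every value.

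Squamous epithelium is renewed from a basal layer, where p63, the product of TP63, keeps the stratified program open, often together with SOX2. Kruppel-like factors then divide the layers between them, with KLF5 known from the dividing basal cells and KLF4 from the differentiating cells above, where it is needed for the skin barrier in mice. Grainyhead-like factors (GRHL1 to GRHL3), the epithelium-specific ETS factors ELF3 and EHF, and the zinc finger repressor OVOL1 act on junction, barrier and differentiation genes.

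The signals were MAS5 values, an intensity per probe set on a linear scale, and a probe set was called well measured if any of the 8 arrays gave it 500 or more. That threshold kept 16517 of 54675 probe sets (30.2%). The medians of the arrays lay at 65.3 to 74.8, and between duplicates the log2 values had differences with an SD of 0.27 to 0.35. IGF2R itself fell to 641 and 645 in BOKU siIGF2R, against 7288 and 6710 in BOKU siCtrl, and to 257 and 295 in SKG-I siIGF2R, against 4120 and 3838 in SKG-I siCtrl (adjusted p = 0.0221 from limma). Changes are given as log2 signal, siIGF2R minus siCtrl, from the means of the duplicate arrays, and limma was fitted to the 4 RNA samples with the cell line as a block and a two-sided test.

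KLF4 and KLF5 were the members that passed the signal threshold, so the start regions of these genes are shown first (RefSeq, GRCh38.p14, 250 bases before to 50 after each start). Capitals mark GC boxes, GGGCGG on either strand. These positions are background to the signals, since an array does not tell which start a transcript used.
KLF4, chr9:107489720-107490019, minus strand: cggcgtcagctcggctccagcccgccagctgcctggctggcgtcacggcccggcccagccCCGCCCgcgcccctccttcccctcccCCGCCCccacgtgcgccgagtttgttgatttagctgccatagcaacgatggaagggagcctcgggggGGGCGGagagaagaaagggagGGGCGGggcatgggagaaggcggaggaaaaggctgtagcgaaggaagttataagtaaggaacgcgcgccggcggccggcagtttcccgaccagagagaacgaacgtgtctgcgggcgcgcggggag
KLF5, chr13:73054726-73055025, plus strand: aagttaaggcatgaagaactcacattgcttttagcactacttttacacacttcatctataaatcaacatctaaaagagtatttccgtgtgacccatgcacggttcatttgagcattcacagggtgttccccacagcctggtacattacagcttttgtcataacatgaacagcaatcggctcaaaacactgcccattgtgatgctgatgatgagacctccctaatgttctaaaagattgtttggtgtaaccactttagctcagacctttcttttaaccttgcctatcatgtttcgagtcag
KLF5, chr13:73058755-73059054, plus strand: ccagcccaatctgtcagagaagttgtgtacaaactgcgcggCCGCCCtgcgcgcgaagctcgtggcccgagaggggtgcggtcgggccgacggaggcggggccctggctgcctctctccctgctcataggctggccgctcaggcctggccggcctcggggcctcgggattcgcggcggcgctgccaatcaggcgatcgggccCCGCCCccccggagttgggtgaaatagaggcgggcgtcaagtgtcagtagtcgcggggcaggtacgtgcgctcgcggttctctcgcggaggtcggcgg

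The KLF4 window held 4 GC boxes at a GC content of 69%. The starts of KLF5 differed from each other, with 0 GC boxes and 40.7% GC in the window at 73054726, and 2 GC boxes and 71.3% GC in the window at 73058755. Of 35116 RefSeq promoters of this length, 45% held GGGCGG on either strand. CACCC, the core letters that Kruppel-like factors are known to bind, was found on either strand 0 times in the KLF4 window and 1 and 2 times in those of KLF5, without overlap with a GC box, and 59.9% of all promoters held it. A TATA box (TATAAA, either strand) occurred in the first KLF5 window alone, as in 11.5% of all promoters, and CCAAT, on either strand, occurred 2 times in the other KLF5 window, as in 34.6% of all promoters. These are matches of letters, and the factors bound there were not measured.

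KLF4, a zinc finger factor of differentiating epithelium that is also used to reprogram cells to pluripotency, was read by 2 probe sets, whose ending _s_at marks probes that can match more than 1 transcript. On 221841_s_at its signals were 2061 and 2155 in BOKU siIGF2R and 4292 and 3664 in BOKU siCtrl. In SKG-I they were 12096 and 12283 after siIGF2R and 9201 and 9090 after siCtrl. The duplicates did not overlap between the siRNAs in either line, and the order of the 4 RNA samples was SKG-I siIGF2R, SKG-I siCtrl, BOKU siCtrl and BOKU siIGF2R, with no overlap between neighbors. The change was −0.91 in BOKU, a signal 1.88-fold lower, and 0.41 in SKG-I, a signal 1.33-fold higher.

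The other KLF4 probe set, 220266_s_at, kept this order. It read 233 and 224 in BOKU siIGF2R and 355 and 415 in BOKU siCtrl, and 1552 and 1733 in SKG-I siIGF2R and 1032 and 863 in SKG-I siCtrl. Its changes were −0.75 in BOKU and 0.80 in SKG-I, so both probe sets of KLF4 had their siIGF2R arrays below the siCtrl arrays in BOKU and above them in SKG-I. That pattern was seen in 5.69% of the probe sets measured, and 78 probe sets lay at least as far apart in these directions as 221841_s_at. Over both lines the opposite changes left an effect of −0.25 (standard error 0.31, adjusted p = 0.643 from limma) on 221841_s_at and of 0.02 (standard error 0.39, adjusted p = 0.977 from limma) on 220266_s_at. The sign of the effect on 220266_s_at turned with the scaling, to −0.04 after quantile normalization. Whether the change differed between the lines could not be tested, with 1 RNA sample per line and siRNA.

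Between the lines, KLF4 was lower in BOKU. In the siCtrl samples the difference, BOKU minus SKG-I, was −1.21 on 221841_s_at (2.31-fold) and −1.30 on 220266_s_at (2.46-fold), and 18.6% of all measured probe sets were at least 2-fold lower in BOKU siCtrl. Over both siRNAs the difference was −1.87 (standard error 0.31, adjusted p = 0.00695 from limma) and −2.07 (standard error 0.39, adjusted p = 0.00981 from limma). Both KLF4 probe sets, which read the same RNA samples, were thus called lower in BOKU, as were 23.2% of all measured probe sets. The probe set 220266_s_at reached 500 on the 4 SKG-I arrays alone, so the threshold itself favored a difference there, and 221841_s_at was above it on all 8 arrays. In RNA from whole cultures, fewer cells with a transcript and less of it per cell cannot be told apart.

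KLF5, the factor of dividing basal cells, behaved otherwise. On 209211_at it had signals of 1622 and 1088 in BOKU siIGF2R and 941 and 917 in BOKU siCtrl. In SKG-I it had 1856 and 1842 after siIGF2R and 985 and 858 after siCtrl. The siIGF2R arrays lay above the siCtrl arrays in both lines, though the duplicates of BOKU siIGF2R stood far apart, and the siCtrl levels of the lines overlapped.

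On 209212_s_at, KLF5 read 1057 and 1107 in BOKU siIGF2R and 985 and 882 in BOKU siCtrl, and 1157 and 1235 in SKG-I siIGF2R and 502 and 580 in SKG-I siCtrl. The siIGF2R arrays were again above the siCtrl arrays in both lines. Of all measured probe sets, 26.4% had this arrangement, so it is common on these arrays. The change was 0.52 in BOKU and 1.01 in SKG-I on 209211_at, and 0.22 in BOKU and 1.15 in SKG-I on 209212_s_at. Both probe sets were at least 2-fold higher in SKG-I siIGF2R, as were 8.62% of all measured probe sets, but neither was 2-fold higher in both lines, where the share of all probe sets was 3.15%. The value of 209211_at sat on the 2-fold line and was 0.98 under median scaling, 0.96 with 64 added to each signal and 0.91 without the second SKG-I siCtrl array.

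Over both lines the effect on KLF5 was 0.76 (standard error 0.22, adjusted p = 0.104 from limma) on 209211_at and 0.68 (standard error 0.28, adjusted p = 0.192 from limma) on 209212_s_at. Of the 4 probe sets of KLF4 and KLF5, limma called 0 for siIGF2R against siCtrl, and 1 had an unadjusted p under 0.05. Among all measured probe sets it called 2.2% higher and 2.09% lower, and 27% had an unadjusted p under 0.05, so 1 of 4 is no more than the background. Without the second BOKU siIGF2R array, 209211_at reached 0.91 with an adjusted p of 0.0421 from limma, and without the first BOKU siIGF2R array its change in BOKU was 0.23. KLF5 did not differ past the threshold between the lines, with −0.23 on 209211_at (adjusted p = 0.427 from limma) and 0.32 on 209212_s_at (adjusted p = 0.385 from limma) for BOKU minus SKG-I. In the siCtrl samples the probe sets gave 0.02 and 0.79 for that difference, so they disagreed on whether the lines began at the same level.

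**Figure D1:**
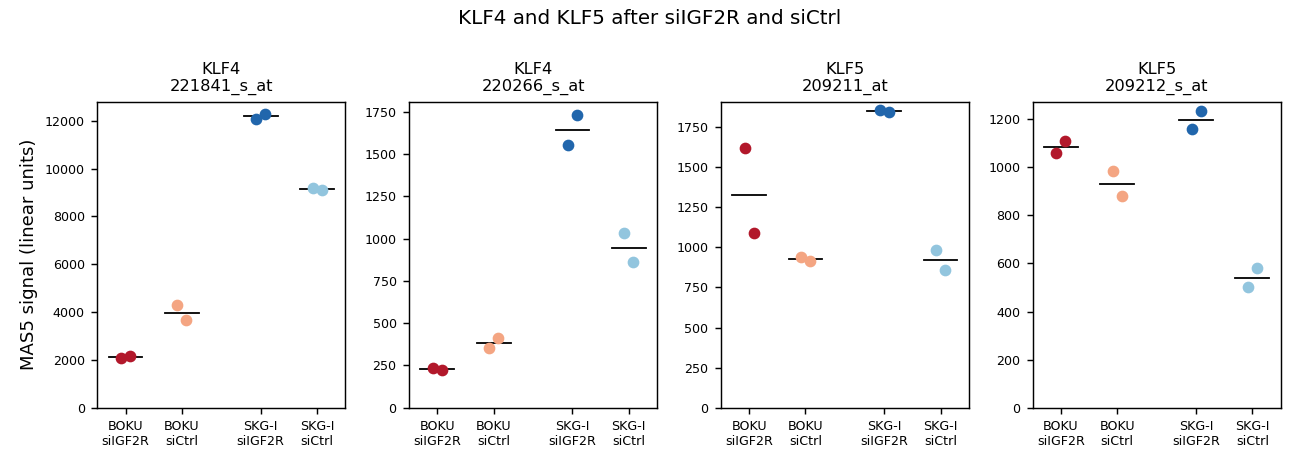
MAS5 signal (linear units, from 0) of the KLF4 and KLF5 probe sets on each array of BOKU siIGF2R, BOKU siCtrl, SKG-I siIGF2R and SKG-I siCtrl. Points are arrays and bars the mean of the duplicates. KLF4 221841_s_at sits at 2061 and 2155 in BOKU siIGF2R, below BOKU siCtrl, and at 12096 and 12283 in SKG-I siIGF2R, above SKG-I siCtrl, while the siIGF2R points of KLF5 lie above the siCtrl points in both lines.

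The other 7 members with probe sets had no signal of 500 on any array. Their 19 probe sets gave 152 array values from 1 to 461, of which 142 were under 100 and 133 under the median of their array. For 12 of these probe sets, all 8 values were under the array median. Fold changes between siIGF2R and siCtrl at such signals are not read as changes here. Effects from the fit without the threshold are given as a description. Signals this low could move widely between duplicates of the same RNA, such as 2.24 and 57.4 for OVOL1 206604_at in BOKU siIGF2R. GRHL1 222830_at was steadier in SKG-I, with 455.3 and 461.3 in SKG-I siCtrl, but read 18.7 and 42.7 in BOKU siCtrl. These 19 probe sets were not part of the test. In a fit without the threshold (54613 probe sets) limma called 0 of all 23 member probe sets for siIGF2R against siCtrl, with a smallest adjusted p of 0.134. In that fit 2 had an unadjusted p under 0.05, as did 15.3% of all probe sets.

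GRHL1, known in mice as a regulator of desmosomal cadherins, came nearest to the threshold from below. On 222830_at it read 57.7 and 68.9 in BOKU siIGF2R and 18.7 and 42.7 in BOKU siCtrl, and 299.8 and 317.6 in SKG-I siIGF2R and 455.3 and 461.3 in SKG-I siCtrl. All 4 SKG-I arrays were above all 4 BOKU arrays. The BOKU values were not above the medians of their arrays, so the size of the difference is not well set. In the fit without the threshold, BOKU minus SKG-I was −3.16 (standard error 0.47, adjusted p = 0.00291 from limma). That made 3 of the 23 member probe sets called lower in BOKU in that fit, the others being those of KLF4, and 10.4% of all probe sets were called so. The other GRHL1 probe set, 1552685_a_at, had 9.82 to 161 and was not called (−1.36, adjusted p = 0.149 from limma).

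GRHL2, an activator of E-cadherin and tight junction genes, read 22.8 to 63.6 on its probe set, and GRHL3, which closes the epidermal barrier in mice, read 4.1 to 38.7. Both stayed under the median of every array in both lines. SOX2, a pluripotency factor that is often amplified in squamous carcinomas of other organs, gave 1 to 139 over 4 probe sets. Its brightest values were those of SKG-I siCtrl on 228038_at, where it read 95.3 and 37.4 in BOKU siIGF2R, 54.4 and 46.7 in BOKU siCtrl, 1 and 13.8 in SKG-I siIGF2R, and 122 and 138.5 in SKG-I siCtrl. The siIGF2R arrays were below the siCtrl arrays in SKG-I and overlapped them in BOKU, and the effect over both lines was not called (−2.44, adjusted p = 0.355 from limma without the threshold).

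ELF3, an ETS factor of differentiating epithelium, gave 1.65 to 172 over 3 probe sets. On 210827_s_at it read 153 and 172 in BOKU siIGF2R, 55 and 55.4 in BOKU siCtrl, 37.4 and 46.4 in SKG-I siIGF2R, and 50.9 and 56.8 in SKG-I siCtrl. BOKU siIGF2R thus stood above the other samples, and the effect over both lines was not called (0.59, adjusted p = 0.696 from limma without the threshold). EHF, its close relative, gave 1 to 66.6 over 6 probe sets, all of them under the array median on every array. OVOL1, a repressor that in mouse epidermis acts as cells leave the dividing layer, gave 2.24 to 85.3 over 2 probe sets. On 229396_at it read 40.1 and 63.6 in BOKU siIGF2R and 85.3 and 69.8 in BOKU siCtrl, while in SKG-I the siIGF2R values (67.6 and 69.9) fell between the siCtrl values (84 and 56.9).

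At the threshold, the well measured probe set with the lowest maximum was KLF5 209212_s_at (1230), and the highest below it were GRHL1 222830_at (461), ELF3 210827_s_at (172), GRHL1 1552685_a_at (161) and SOX2 228038_at (139). The threshold therefore lay in a wide gap of these maxima. The values of single arrays left no such gap, since KLF5 209212_s_at went down to 502 and KLF4 220266_s_at read 224 to 415 in BOKU.

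**Figure D2:**
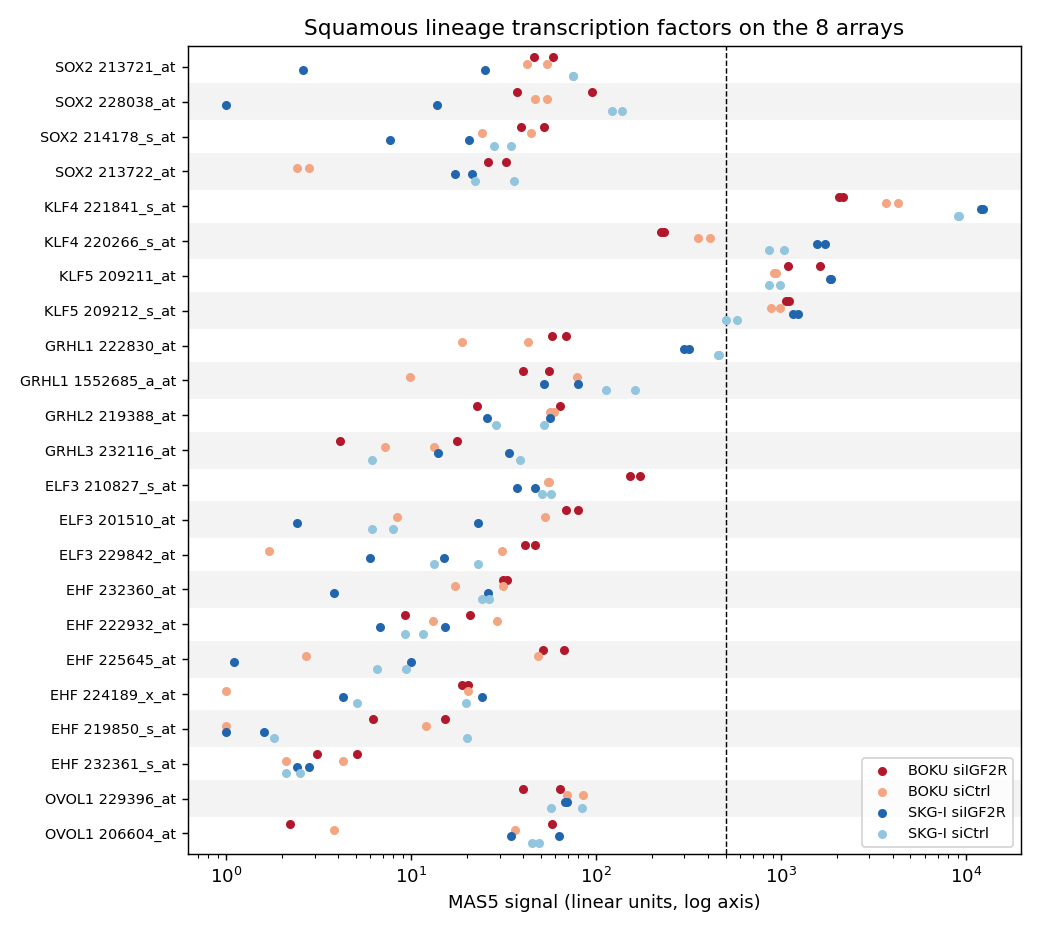
MAS5 signal (linear units, log axis) of the 23 probe sets of 9 members on the 8 arrays; the dashed line is the signal of 500. The 4 probe sets of KLF4 and KLF5 reach 1230 to 12300, and the other 19 stay at or under 461.

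The samples were also set against markers of squamous epithelium, since the members are named for it. KRT5 and KRT14, the keratins of its basal layer, were at 45.9 or less on every array of both lines. Of 10 squamous markers, 8 had a probe set paired with that gene alone, the way all lists here were counted. The sum of their signals was 15700 to 18100 in BOKU siIGF2R and 15400 to 15900 in BOKU siCtrl. In SKG-I the sum was 12800 to 13800 after siIGF2R and 22700 to 23300 after siCtrl. The BOKU sums were carried by S100A2, and 6 of the 8 markers were under 100 on both arrays of each BOKU sample. In BOKU 2 of the 8 were at 500 or more on both arrays, S100A2 and DSC3. In SKG-I siCtrl there were 4, the same 2 with TRIM29 and SERPINB5. S100A2 and DSC3 were higher in BOKU. S100A2 was at 14180 to 16880 in BOKU, against 899 to 1600 in SKG-I, and DSC3 at 1074 to 1213, against 373 to 799. TRIM29 read 47.6 and 55.1 in BOKU siIGF2R, 6.68 and 28.9 in BOKU siCtrl, 4861 and 4532 in SKG-I siIGF2R, and 9571 and 8379 in SKG-I siCtrl. SERPINB5 (maspin) was at 42.8 or less in BOKU and at 6680 to 11570 in SKG-I. Basal keratins were thus under the array medians in both lines, and the squamous markers above 500 did not run one way. Of the 5 well measured, limma called 3 lower and 2 higher in BOKU, and 3 reached 500 in SKG-I alone.

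Markers of other cell types also differed between the lines, but not all of a list in one direction. The 8 markers of epithelium in general summed to 24200 to 28700 in BOKU siIGF2R, 32000 to 34600 in BOKU siCtrl, 17700 to 18000 in SKG-I siIGF2R and 24100 to 25400 in SKG-I siCtrl. Of the 5 well measured, limma called EPCAM and CLDN7 lower and KRT19 higher in BOKU, and the sums were carried by KRT18 and KRT19. EPCAM, CLDN7 and CDH1 reached 500 in SKG-I alone, so a lower level in BOKU was built into their choice. EPCAM was at 44.7 and 32.3 in BOKU siIGF2R and 50.8 and 17.9 in BOKU siCtrl, against 1247 and 1450 in SKG-I siIGF2R and 1536 and 1518 in SKG-I siCtrl. CDH1 (E-cadherin) was at 3.15 or less in BOKU, and in SKG-I it read 619 and 652 after siIGF2R and 143 and 173 after siCtrl, without a call between the lines (adjusted p = 0.0953 from limma).

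The 10 mesenchymal markers summed to 49900 to 62900 in BOKU siIGF2R and 68100 to 78300 in BOKU siCtrl, against 8870 to 9130 in SKG-I siIGF2R and 10200 in SKG-I siCtrl. The BOKU sums were carried by FN1 and VIM (vimentin). VIM read 16500 and 21590 in BOKU siIGF2R and 28540 and 36180 in BOKU siCtrl, against 123 and 107 in SKG-I siIGF2R and 929 and 875 in SKG-I siCtrl. The collagens COL1A1 and COL3A1 ran the other way. COL1A1 was at 1187 to 1530 in BOKU, against 4304 to 5684 in SKG-I, and COL3A1 at 12.9 to 27.8 in BOKU, against 1380 to 2013 in SKG-I. In all, 4 of the 6 well measured markers of this list were called higher and 2 lower in BOKU, and COL1A2, DCN and LUM stayed at 149 or less throughout. TWIST1 reached 500 in BOKU alone and COL3A1 in SKG-I alone, so the threshold favored those differences.

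The 10 columnar markers summed to 45200 to 52200 in BOKU siIGF2R, 51300 to 54000 in BOKU siCtrl, 46000 to 47700 in SKG-I siIGF2R and 61400 to 62200 in SKG-I siCtrl. KRT8 and KRT18, keratins of simple epithelium, were at 7282 or more on every array, while MUC16 and AGR2 were at 9.12 or less in BOKU. PAX8 ran the other way, at 5474 to 6596 in BOKU, against 294 to 425 in SKG-I. Of the 8 well measured, limma called 5 lower and 2 higher in BOKU. Of these 8, 2 reached 500 in SKG-I alone and 1 in BOKU alone. After siIGF2R, 1 of the 8 was higher in both lines, 4 were lower in both and 3 had opposite signs. The median of their changes was 0 (BOKU) and −0.2 (SKG-I), and limma called 0. In BOKU, KRT7 read 6812 and 7704 after siIGF2R and 3520 and 4049 after siCtrl, and MUC1 953 and 971 against 303 and 397. In SKG-I, KRT19 read 1968 and 1939 after siIGF2R and 7024 and 7222 after siCtrl, and TSPAN8 read 570 and 625 after siIGF2R and 5132 and 5911 after siCtrl. AGR2 read 2.74 and 7.82 in SKG-I siIGF2R and 412 and 449 in SKG-I siCtrl. Over both lines KRT19 and TSPAN8 were not called for siIGF2R (adjusted p = 0.164 and 0.173 from limma), and AGR2 was under the threshold. Leukocyte markers (4 of 5 with a probe set) summed to 155 to 299 and endothelial markers (4 of 4) to 137 to 589. The part of these differences in the KLF4, KLF5 and GRHL1 values was not tested.

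**Figure D3:**
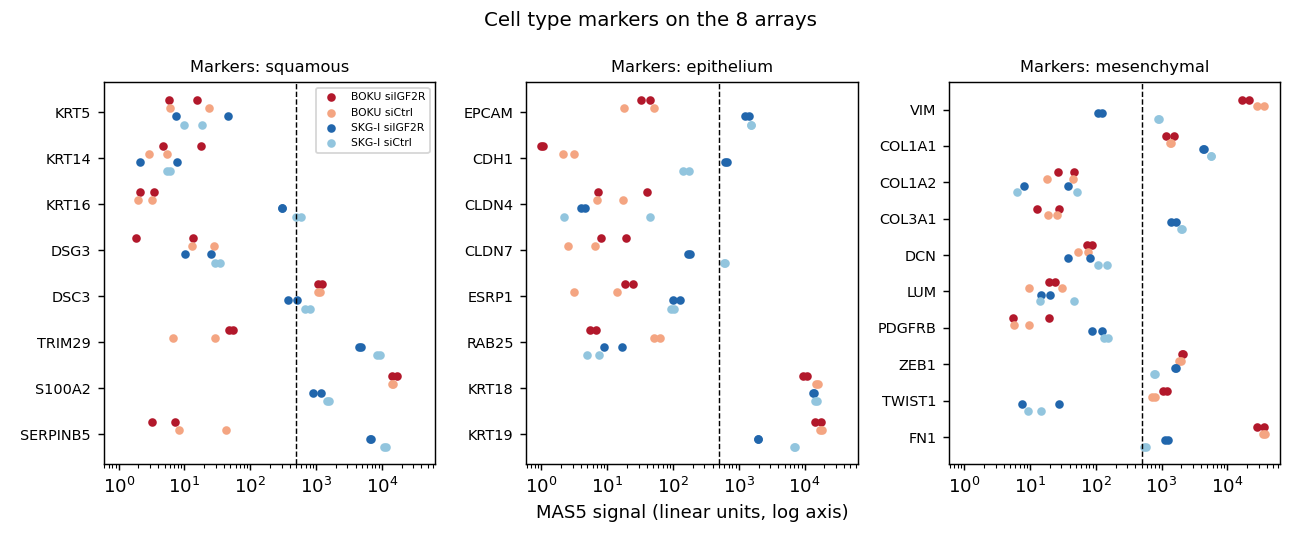
MAS5 signal (linear units, log axis) of squamous, epithelial and mesenchymal markers on each array of the 4 RNA samples; the dashed line is the signal of 500. KRT5 and KRT14 stay at 45.9 or less on all arrays, and TRIM29, SERPINB5 and EPCAM are high in SKG-I alone. S100A2 (14180 to 16880) and VIM (16500 to 36180) are higher in BOKU.

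Related genes were taken from lists, with each gene read on its probe set of highest mean signal. Of 23 other transcription factors of stratified epithelium, 20 had a probe set and 9 were well measured. Limma called 0 of them for siIGF2R against siCtrl, against 232 higher and 211 lower of all 8961 genes, and 2 had an unadjusted p under 0.05, which is no larger a share than the 27% of all measured probe sets. The median of their changes was −0.23 (BOKU) and 0.21 (SKG-I), beside 0.03 and −0.03 for all genes.

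MAF, which takes part in keratinocyte differentiation, was the gene of these lists that was at least 2-fold lower in both lines. It read 991 and 911 in BOKU siIGF2R and 2140 and 1974 in BOKU siCtrl, and 81.7 and 70 in SKG-I siIGF2R and 207 and 225.5 in SKG-I siCtrl. Its changes were −1.11 and −1.52, and the effect over both lines was not called (−1.31, standard error 0.27, adjusted p = 0.0572 from limma). Its other well measured probe sets gave −0.70 and −3.05 with adjusted p values of 0.477 and 0.145 from limma, so its size differed by probe set.

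Of the 23 family relatives of the members, 22 had a probe set and 15 were well measured. Limma called 0 of them for siIGF2R against siCtrl, 3 had an unadjusted p under 0.05 (27% of all measured probe sets did), and the median of their changes was −0.03 (BOKU) and 0.06 (SKG-I). The genes named next were chosen after their values were seen. SOX9, a relative of SOX2, differed by −0.70 within BOKU and by −1.18 within SKG-I, with an adjusted p of 0.0602 from limma. KLF11 and KLF13, relatives of KLF4 and KLF5, had 1.11 and 1.13 in BOKU and 0.63 and 0.53 in SKG-I, with adjusted p values of 0.11 and 0.105 from limma. Between the lines 7 relatives were called higher and 1 lower in BOKU, beside 1966 higher and 2164 lower of all genes, and 3 of the 15 (KLF2, KLF7 and KLF9) reached 500 in BOKU alone, so the threshold favored their call there. KLF6, above 500 on all 8 arrays and higher in BOKU where KLF4 was lower, read 5209 and 5211 in BOKU siIGF2R and 5372 and 5599 in BOKU siCtrl, against 871 and 966 in SKG-I siIGF2R and 795 and 782 in SKG-I siCtrl (2.65, adjusted p = 0.000696 from limma).

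**Figure D4:**
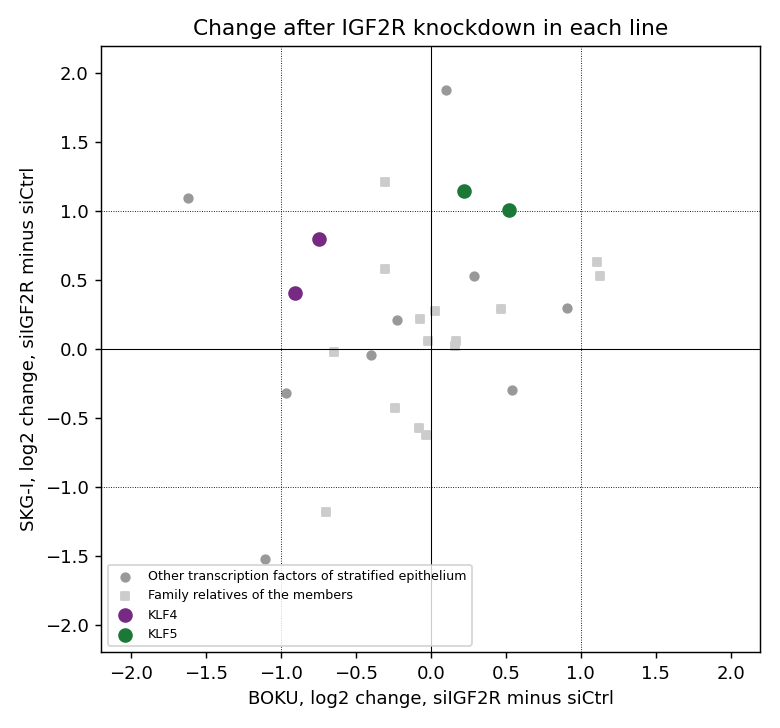
Change in log2 signal after IGF2R knockdown (siIGF2R minus siCtrl) in BOKU, on the horizontal axis, and in SKG-I, on the vertical axis, for KLF4 and KLF5 (each probe set) and for the well measured genes of the lists of related factors; dotted lines mark 2-fold. KLF4 lies in the field lower in BOKU and higher in SKG-I, at −0.91 and 0.41 and at −0.75 and 0.80, and KLF5 in the field higher in both. MAF is past 2-fold lower in both, with low signals in SKG-I.

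Genes known to depend on the members gave no call for siIGF2R either. Of 16 genes known as dependent on p63 in keratinocytes, 13 had a probe set and 9 were well measured, with changes whose median was 0.11 (BOKU) and −0.31 (SKG-I). Limma called 0, and 1 had an unadjusted p under 0.05, again a share under that of all probe sets. The changes of 8 of the 9 had opposite signs in the lines, whereas of all 8961 genes 3200 were higher and 3196 lower in both. A sign counts changes of any size, and ITGB4 and TRIM29 did not reach 500 in BOKU, so this count is a description. TRIM29, with the signals given above, had 1.88 in BOKU, where it was under the array medians, and −0.93 in SKG-I, and the effect over both lines was not called (adjusted p = 0.665 from limma). S100A2, a calcium-binding protein of basal keratinocytes, read 14360 and 16882 in BOKU siIGF2R and 14681 and 14176 in BOKU siCtrl, against 1182 and 899 in SKG-I siIGF2R and 1600 and 1493 in SKG-I siCtrl. Between the lines, 4 of the 9 were called lower in BOKU (PERP, ITGB4, TRIM29 and LAMB3) and 2 higher (ITGA3 and S100A2), so these genes did not run one way. Of the 9, ITGB4 and TRIM29 reached 500 in SKG-I alone.

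Of 14 epithelial genes known as dependent on grainyhead-like factors, 4 were well measured (CDH1, EPCAM, NECTIN4 and SPINT1). All 4 reached 500 in SKG-I alone, so a lower level in BOKU was built into the choice, and the 3 called lower in BOKU (all but CDH1) are a description. SPINT1, a protease inhibitor of epithelial surfaces, read 5.7 and 8 in BOKU siIGF2R and 21.2 and 8.4 in BOKU siCtrl, against 1120 and 1100 in SKG-I siIGF2R and 1043 and 893 in SKG-I siCtrl. For siIGF2R against siCtrl limma called 0 of the 4, and 0 had an unadjusted p under 0.05. The median of their changes within SKG-I was 0.09, and that within BOKU is not read, since 3 of the 4 were under the array medians there. CDH1 had a change of 2.01 within SKG-I. Of 16 suprabasal and cornification genes, the products of the outer layers, 15 had a probe set and KRT10 alone was well measured, with 0.32 (BOKU) and −0.57 (SKG-I) and an adjusted p of 0.759 from limma.

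Genes whose 4 mean log2 signals ran most like those of KLF4 and KLF5 were sought by the Euclidean distance between profiles centered on their own mean, over the 4 RNA samples and one probe set per gene. This search was chosen after the values were seen, in place of one for TP63. OPN3 (0.25), ZNF468 (0.29) and ZNF45 (0.40) lay nearest to KLF4, and PFKP (0.14), MRPS9 (0.15) and USP53 (0.15) were among those nearest to KLF5. The changes of OPN3 were −0.66 within BOKU and 0.42 within SKG-I, those of PFKP 0.39 and 0.86.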

How the data were processed

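The authors hybridized the RNA to Affymetrix GeneChip arrays for the human genome and deposited 1 MAS5 signal per probe set and array, an intensity on a linear scale already background-subtracted and scaled. The methods state a mean of 1000, but the deposited intensities have a trimmed mean of 500.06 to 500.07 and means of 752 to 840, and they were used as they are. Scan or hybridization batches are not given in the sources used here.

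Computations were made with limma 3.58.1 under R 4.3.3. Of 54675 probe sets, 62 controls were removed, and the ones that reached 500 on any array were retained. They comprised 14544 probe sets with 1 gene, 765 with several genes and 1208 with none listed. Log2 signals of duplicate arrays, which the study states carried the same total RNA, were averaged. For siIGF2R against siCtrl the 2 cell lines were then the replicates. The p values set the mean change over the lines against a spread between them that limma moderates toward that of all probe sets. With 1 residual degree of freedom, most of that spread is drawn from other probe sets. The same moderated spread serves the comparison of the lines. For BOKU minus SKG-I the siIGF2R and siCtrl samples of each line stood in as its replicates. Those p values therefore carry no replicate culture of either line. Limma was fitted to the 4 RNA samples with cell line and siRNA, a variance trend and Benjamini-Hochberg adjustment over 16517 probe sets (threshold 0.05, 1 residual degree of freedom plus 4.82 from all probe sets). The steps were run on data simulated from the fitted model, with the same change in both lines. That run checks the code, and cannot tell whether the model holds for these samples. The array numbers only name the duplicates (correlation of their deviations −0.0061 to 0.13 between samples).

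The members and the lists were chosen with earlier results of these data known. All members were named with all their single-gene probe sets, and of each other list at most 4 genes that were called by limma or changed at least 2-fold the same way in both lines. Markers are given with their lists, and genes named outside this rule are said to be or stand beside their list's count. The annotation used here paired no probe set with TP63, so the search of like patterns planned for it was not made. Alternatives covered the threshold, scaling, a floor of 100, 64 added to each signal, how duplicates were averaged, the variance trend, the block, leaving out each array and the methods' t-test.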

Additional observations from a re-analysis of the deposited data

Results flagged for a closer look

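KLF4 had changes of opposite sign in the lines on both of its probe sets. On 221841_s_at, siIGF2R minus siCtrl was −0.91 in BOKU and 0.41 in SKG-I, and on 220266_s_at it was −0.75 in BOKU and 0.80 in SKG-I. In each line both siIGF2R arrays lay on one side of both siCtrl arrays. The difference between the lines was not tested, since there was 1 RNA sample for each line and siRNA, shared by its duplicate arrays.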

How the results depend on the processing

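The lower level of KLF4 in BOKU passed the threshold under 17 of 17 alternatives on both probe sets, with adjusted p values from limma of 0.000664 to 0.0338 on 221841_s_at and 0.00289 to 0.035 on 220266_s_at. Without each array in turn these differences were −1.93 to −1.81 and −2.14 to −2.01. KLF5 differed between the lines under 0 of 17. For siIGF2R against siCtrl, KLF4 221841_s_at was −0.31 to −0.16 and was called under 0 of 20 alternatives, as was 220266_s_at. KLF4 220266_s_at turned to −0.04 under quantile normalization and to −0.01 under median scaling, and ran from −0.04 to 0.09 without each array.

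KLF5 209211_at kept its direction under 20 alternatives and was called under 3. Without each array it ran from 0.62 to 0.91, with the call made without the second BOKU siIGF2R array (adjusted p = 0.0421 from limma). With the arrays as separate samples, which counts duplicates of 1 RNA as replicates, it was 0.76 (adjusted p = 0.00329 from limma) with the cell line as replicate block and 0.76 (0.0046) with the array number added to the block. KLF5 209212_s_at was 0.68 (0.0138) and 0.68 (0.025) in these fits. By the methods' t-test on the duplicate arrays of each line, which share 1 RNA, the Benjamini-Hochberg adjusted values for KLF4 were 0.077 and 0.087 in BOKU and 0.024 and 0.08 in SKG-I, and those for KLF5 were 0.33 and 0.23 in BOKU and 0.042 and 0.043 in SKG-I (order of probe sets as above).

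The counts of probe sets moved more. Limma called 363 higher and 346 lower. The counts were 237 higher under quantile normalization, 655 and 575 with 64 added, and 0 and 0 with no variance trend (3865 at an unadjusted p under 0.05) or with no replicate block (625). With the arrays as separate samples they were 4269 and 3833, or 3992 and 3609 with the array number in the block. Leaving out each array gave 216 to 838 higher, with 838 without BOKU siCtrl array 1, 786 without BOKU siIGF2R array 2 and 216 without BOKU siCtrl array 2, and 233 to 759 lower. At least 2-fold in both lines were 520 higher and 377 lower, which became 1882 and 1633 without the threshold on signal and 1431 and 1162 at 1.5-fold. Without each array these were 506 to 535 and 370 to 394. With the methods' t-test at their threshold added they were 427 and 329, or 125 and 105 after Benjamini-Hochberg adjustment. The counts between the lines, 3678 higher and 3824 lower in BOKU, ran from 3544 to 3832 and from 3698 to 3935. The causes of these shifts were not tested. Scaling to a mean of 1000 was chosen after seeing the data and changed no call of a member. The signal of 500 limits which members were read here, and 7 of the 10 were under it.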
